A study of Mus musculus with 11 samples.

Results

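NKT thymocytes were compared with innate lymphoid cell precursors (ILCP) of the bone marrow, the pair of cell types in these data that express the transcription factor PLZF, encoded by Zbtb16. Accessible chromatin was mapped by ATAC-seq, in which a transposase cuts open chromatin, and each of the 4 libraries, 2 of NKT and 2 of ILCP, was represented by its own list of peaks. Merging peaks of the 4 libraries wherever they shared 1 bp or more gave 51670 intervals, and an interval was called open in a library when a peak of that library lay in it. An interval open in both NKT libraries and in neither ILCP library was termed NKT-gained (12804 intervals, 24.8% of all merged intervals), the reverse was termed ILCP-gained (5845 intervals, 11.3%), and an interval open in all 4 libraries was termed shared (14266 intervals, 27.6%). These 3 classes held 32915 intervals, and the rest were open in another combination of libraries, the largest group being 6579 intervals open only in NKT replicate 2. Over all 9 ATAC-seq libraries of the study, which also include CD4SP thymocytes (2 libraries) and common lymphoid progenitors (CLP, 3 libraries), the peaks merged into 71398 intervals.

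The labels give the strain C57BL/6 for every sample and name no treatment, and the mice were young, within the single age range used throughout the study. NKT and CD4SP cells were thymocytes, and ILCP and CLP were taken from bone marrow, so cell type and tissue cannot be told apart in any comparison of NKT with ILCP. ILCP were sorted as Lin- IL-7Rα+ α4β7+ eGFP+ cells, where eGFP reports Zbtb16 expression (the study's reporter strain is Zbtb16-IRESGFPcre), whereas NKT cells were isolated with CD1d-αGalCer tetramers. The CLP gate took lineage-negative cells with IL-7Rα, intermediate cKit and Sca-1, and high Flt3. The gates therefore fixed Zbtb16 expression in ILCP and high Flt3 in CLP, and the labels do not say which developmental stages of NKT cells were pooled. Replicates of a cell type were biological replicates by the study's methods, and how many mice stood behind each was not stated.

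NKT cells are T cells with a semi-invariant T cell receptor that recognises lipids presented by CD1d, and they are selected in the thymus by strong receptor signals that induce Egr2 and, in turn, PLZF. ILCP are progenitors without antigen receptors that give rise to innate lymphoid cells and arise from CLP under the control of Nfil3, Id2, Tox, Tcf7 and Gata3. The transcription factors of the Runx family bind DNA together with Cbfb and act throughout haematopoiesis, in T cells, innate lymphoid cells and their progenitors. CD4SP thymocytes are conventional T cells and CLP are early lymphoid progenitors, and neither expresses PLZF.

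Sequences of 6 gained intervals are given first, because the classes differed by the most percentage points in their Runx sites and because these intervals belong to genes of both lineages. Each is the central 300 bases of the highest-ranking gained interval of its gene, read from the plus strand of GRCm38.p6 (mm10), with every match to the Runx core TGTGGT or TGCGGT, on either strand, in capitals.
Zbtb16, ILCP-gained, intron, chr9:48814622-48814921: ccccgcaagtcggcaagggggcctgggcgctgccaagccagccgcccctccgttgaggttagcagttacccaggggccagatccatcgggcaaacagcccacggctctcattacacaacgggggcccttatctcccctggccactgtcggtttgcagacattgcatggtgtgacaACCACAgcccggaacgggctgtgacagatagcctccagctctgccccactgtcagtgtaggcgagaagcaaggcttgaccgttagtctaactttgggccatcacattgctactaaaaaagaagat
Nfil3, ILCP-gained, intergenic, chr13:53000550-53000849: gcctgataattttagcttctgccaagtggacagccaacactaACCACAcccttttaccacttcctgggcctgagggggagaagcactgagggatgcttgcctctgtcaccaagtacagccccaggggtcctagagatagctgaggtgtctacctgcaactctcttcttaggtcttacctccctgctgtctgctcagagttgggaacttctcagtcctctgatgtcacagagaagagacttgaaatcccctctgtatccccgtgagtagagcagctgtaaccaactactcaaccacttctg
Pdcd1, ILCP-gained, intron and part of a coding exon, chr1:94040503-94040802: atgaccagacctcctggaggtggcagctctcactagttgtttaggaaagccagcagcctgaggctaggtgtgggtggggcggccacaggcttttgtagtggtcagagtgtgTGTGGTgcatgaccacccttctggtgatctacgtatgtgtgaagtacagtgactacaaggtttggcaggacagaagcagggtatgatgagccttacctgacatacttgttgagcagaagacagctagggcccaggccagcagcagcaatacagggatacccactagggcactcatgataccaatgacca
Zbtb16, NKT-gained, intron, chr9:48715202-48715501: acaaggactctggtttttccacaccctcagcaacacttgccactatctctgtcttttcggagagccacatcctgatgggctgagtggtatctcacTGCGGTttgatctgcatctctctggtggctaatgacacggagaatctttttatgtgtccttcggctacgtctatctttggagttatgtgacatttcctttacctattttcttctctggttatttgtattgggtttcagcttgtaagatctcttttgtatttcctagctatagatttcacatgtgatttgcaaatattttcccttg
Tcf7, NKT-gained, intron, chr11:52275218-52275517: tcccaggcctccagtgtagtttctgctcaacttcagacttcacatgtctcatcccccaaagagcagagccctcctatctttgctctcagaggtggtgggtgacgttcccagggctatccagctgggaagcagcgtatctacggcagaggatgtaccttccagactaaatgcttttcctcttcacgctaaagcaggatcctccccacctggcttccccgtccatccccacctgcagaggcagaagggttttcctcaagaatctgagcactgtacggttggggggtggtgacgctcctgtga
Tox, NKT-gained, intron, chr4:6970581-6970880: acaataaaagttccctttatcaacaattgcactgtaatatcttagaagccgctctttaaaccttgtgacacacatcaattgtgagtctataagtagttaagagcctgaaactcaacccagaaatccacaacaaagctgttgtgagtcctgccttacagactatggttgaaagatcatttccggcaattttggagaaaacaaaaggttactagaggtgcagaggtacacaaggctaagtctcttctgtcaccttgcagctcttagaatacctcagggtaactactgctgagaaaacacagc

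Nfil3 is a basic leucine zipper factor, and Pdcd1 encodes the inhibitory receptor PD1. The ILCP-gained windows of Zbtb16, Nfil3 and Pdcd1 each held 1 Runx site with this spelling of the core. The NKT-gained window of Zbtb16 also held 1, in its TGCGGT form, and those of Tcf7 and Tox held none. Runx motifs with other spellings were not searched for and can be present in any of the windows. Windows were made in this way for 11 intervals, and 3 of 5 ILCP-gained windows and 2 of 6 NKT-gained windows held a Runx site. The printed ones include every ILCP-gained window with a site and neither of those without (Itga4 and Meis1), and leave out the NKT-gained window of Il2rb, which held 2, so they overstate the contrast. The windows are too few to compare, and the shares over all intervals are given further on.

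The deposited lists held 34701 and 38793 peaks for NKT and 26328 and 25771 for ILCP. Without the 2 mitochondrial peaks in each list, the mean was 36745 ± 2893 (SD, n = 2) in NKT and 26048 ± 394 (n = 2) in ILCP, a difference of 10698 peaks. Each NKT list was longer than each ILCP list, and 2 libraries against 2 cannot give an exact permutation p under 0.333, which is the value obtained (two-sided). The lists carry no read counts and the methods give only a common range of reads sequenced, so the depth of each library is unknown. An interval termed closed is therefore one in which no peak was called, at whatever depth that library had. In the control cells the lists held 33648 and 37909 peaks for CD4SP and 19343, 41535 and 40136 for CLP, so that CLP replicate 1 was thin. Start sites of 10 T and NKT cell markers, taken as within 1 kb of any annotated start, were all open in both NKT libraries. In each ILCP library 4 of 10 were open, with Cd3d, Lck and Bcl11b among them, and Cd3e, Cd3g, Cd247 and Cd4 had no peak. The Cd3d interval open in ILCP, chr9:44985852-44987628, lay at the downstream end of the gene, while 2 other Cd3d start-site intervals were NKT-gained. Of 10 ILCP markers, 8 and 7 were open in the ILCP libraries and 9 in each NKT library, with Tcf7 closed at its annotated starts in all 4 and Itgb7 closed in ILCP. The ILCP markers therefore did not set ILCP apart from NKT, whereas the T and NKT markers did. Markers of other cells were open at 2 and 3 of 7 B-lineage, 2 and 2 of 7 myeloid, 2 and 4 of 4 erythroid and 0 and 1 of 6 immature thymocyte start sites in NKT. In ILCP these counts were 2 and 1 for B-lineage, 1 and 1 for myeloid, 2 and 2 for erythroid and 1 and 1 for immature thymocyte markers. Cd79a, which encodes a chain of the B cell receptor complex, was closed in all 4 libraries, and the part of other cells in the results below was not tested.

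The numbers of gained intervals followed the lengths of the lists. With the 25769 highest-scoring peaks of each of the 4 libraries, 6732 intervals were NKT-gained, 7280 were ILCP-gained and 12519 were shared, so that the NKT-gained share of the gained intervals fell from 68.7% to 48%. The larger number of NKT-gained intervals was thus not seen with lists of equal length, and the comparison of the classes rests on where the intervals lay and what they held. Leaving out NKT replicate 1 raised the number of NKT-gained intervals to 19477, which includes the many peaks called only in NKT replicate 2.

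**Figure D1:**
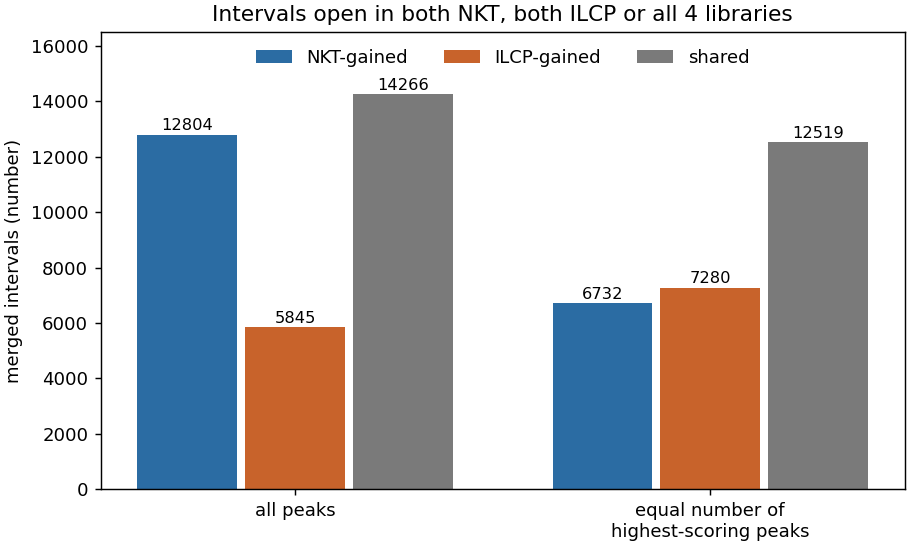
Number of merged intervals in each class (y axis), with all peaks of the 4 libraries on the left and with the 25769 highest-scoring peaks of each library on the right. NKT-gained intervals (blue) outnumber ILCP-gained ones (orange) with all peaks, 12804 against 5845, but not with lists of equal length, 6732 against 7280.

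NKT-gained intervals lay closer to genes than ILCP-gained ones. Within 1 kb of an annotated start site lay 17.8% of NKT-gained, 9.56% of ILCP-gained and 49.7% of shared intervals, and with lists of equal length these shares were 21.5%, 10.3% and 54.3%. Among the remaining, distal intervals, the median distance to the nearest start site was 22.3 kb for 10526 NKT-gained, 39.5 kb for 5286 ILCP-gained and 26.3 kb for 7176 shared intervals. More than 50 kb from any start lay 27.5% of distal NKT-gained and 43.2% of distal ILCP-gained intervals. Introns held 41.5% of NKT-gained and 44% of ILCP-gained intervals, and intergenic sequence held 37.5% and 43.3%. Gained intervals ranked below shared ones by peak score, which was expressed as a percentile within each library (0 lowest, 100 highest). The median percentile of NKT-gained intervals was 37 and 43.5 in the NKT libraries, that of ILCP-gained intervals 45.1 and 44.9 in the ILCP libraries, and that of shared intervals between 65.3 and 77.9 in the 4 libraries.

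The classes differed sharply in the control cells, which the class rule did not use. Of the NKT-gained intervals, 86.7% (Wilson 95% interval 86.1 to 87.3) were open in at least 1 CD4SP library and 72.7% in both, while 39.9% were open in at least 1 CLP library. Of the ILCP-gained intervals, 54.3% (53 to 55.6) were open in at least 1 CLP library and 4.57% (4.06 to 5.13) in at least 1 CD4SP library, the latter 9.76% when NKT replicate 2 was left out. Of the shared intervals, 92.5% were open in at least 1 CD4SP library and 89.2% in at least 1 CLP library. NKT-gained intervals thus lay somewhat below the shared ones in CD4SP and far below them in CLP, while ILCP-gained intervals lay below the shared ones in both. Intervals open in neither control made up 10.9% of NKT-gained intervals (1401), 44.7% of ILCP-gained intervals (2611) and 3.03% of shared intervals (432). The CLP shares depended on the library, since CLP replicate 1 covered 27.9% of ILCP-gained intervals and replicates 2 and 3 covered 52.3% and 51.2%. CD4SP and NKT share the thymus as CLP and ILCP share the bone marrow, so tissue and lineage cannot be told apart here. These binomial intervals cover counting error only, and neighbouring intervals of the same libraries are not independent replicates.

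The comparison of motifs asked which binding sites separate NKT from ILCP. Over all distal peaks of each library, with the motif searched on both strands in the central 200 bp, Runx sites were present in 29.9% and 28.8% of peaks in NKT replicates 1 and 2. They were present in 44.5% and 44.3% in ILCP, in 26.8% and 26.6% in CD4SP and in 38%, 31.8% and 32% in CLP. Both ILCP libraries stood above every other library, and the mean difference between NKT and ILCP was -15.1 percentage points (29.4 ± 0.785 against 44.4 ± 0.158, SD, n = 2 each). With whole peaks searched it was -7.59 points. Peaks with the ROR site TAGGTCA, bound by the nuclear receptors RORα and RORγt, made up 1.73% and 1.63% in NKT and 3.08% and 3.21% in ILCP, with all CD4SP and CLP libraries between 1.54% and 1.88%. GATA sites (AGATAA or AGATAG and likewise TGATAA or TGATAG) were found in 30.4% and 28.9% of NKT peaks and 33.6% and 33.7% of ILCP peaks. In this central window the ILCP libraries were therefore the highest of all 4 cell types in Runx, ROR and GATA sites.

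Other motifs were more frequent in NKT. ETS sites (AGGAAG or CGGAAG) were found in 47.5% and 44.5% of NKT peaks and in 41.8% and 41.9% of ILCP peaks, and were most frequent in CLP (50.1% to 53.5%). Sites of the Egr family (CGTGGGNG), zinc finger factors induced by antigen receptor signals, were found in 2.3% and 2.31% of NKT peaks and 1.39% and 1.38% of ILCP peaks, with 1.98% and 1.96% in CD4SP. The NKT libraries were the highest of all 4 cell types in Egr sites. CTCF core sites (CCANNAGGG or CCANNAGAG) were found in 12.7% and 15.4% of NKT peaks and 11.7% and 11.6% of ILCP peaks. With lists of equal length the CTCF difference turned round, to -0.236 points, with overlapping libraries. Without NKT replicate 2 it was 0.976 points in place of 2.33, and without NKT replicate 1 the ETS difference was 2.62 in place of 4.14. Sites of Tcf1 and Lef1 (CTTTGAT or CTTTGAA) were similar in level in NKT (14.3% and 13.9%) and ILCP (both 15.5%), although the ILCP libraries were above the NKT libraries, and CLP was far below at 6.19% to 6.82%. The GATA and Tcf1 differences turned round when whole peaks were searched, where NKT peaks, which are wider, had the higher mean (0.81 and 0.304 points, with overlapping libraries). In all, 18 motifs were compared, and both libraries of a type lay beyond both of the other for 14 of them, 9 higher in NKT and 5 higher in ILCP. Each of these had an exact permutation p of 0.333 (two-sided, the smallest possible) and a Benjamini-Hochberg adjusted p of 0.429 over the 18 motifs, so none could pass a threshold of 0.05 in this design. The motifs not described otherwise were spelled GGATGTGGT (ETS-Runx, which contains a Runx site), TTATGTAA or TTACGTAA (PAR bZIP), TTCNNNGAA (STAT), GAAAGTGAA or GAAACTGAA (IRF), GGGANTTTC (NF-kB) and CCCNNGGGA (EBF). Of 54327 windows of 200 bp at annotated start sites, 37.1% held an ETS site, 25.3% an E-box, 15.9% a GATA site, 7.82% a CTCF site, 4.29% a Tcf1 site and 3.93% an Egr site. ROR sites were in 1.26% of them, AP-1 in 2.69%, KLF and Sp sites in 25.1%, PU.1 in 2.02% and T-box in 2.35%. For the remaining motifs these shares were 0.191% for ETS-Runx, 0.543% for PAR bZIP, 4.84% for STAT, 0.725% for IRF, 0.749% for NF-kB and 4.91% for EBF.

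**Figure D2:**
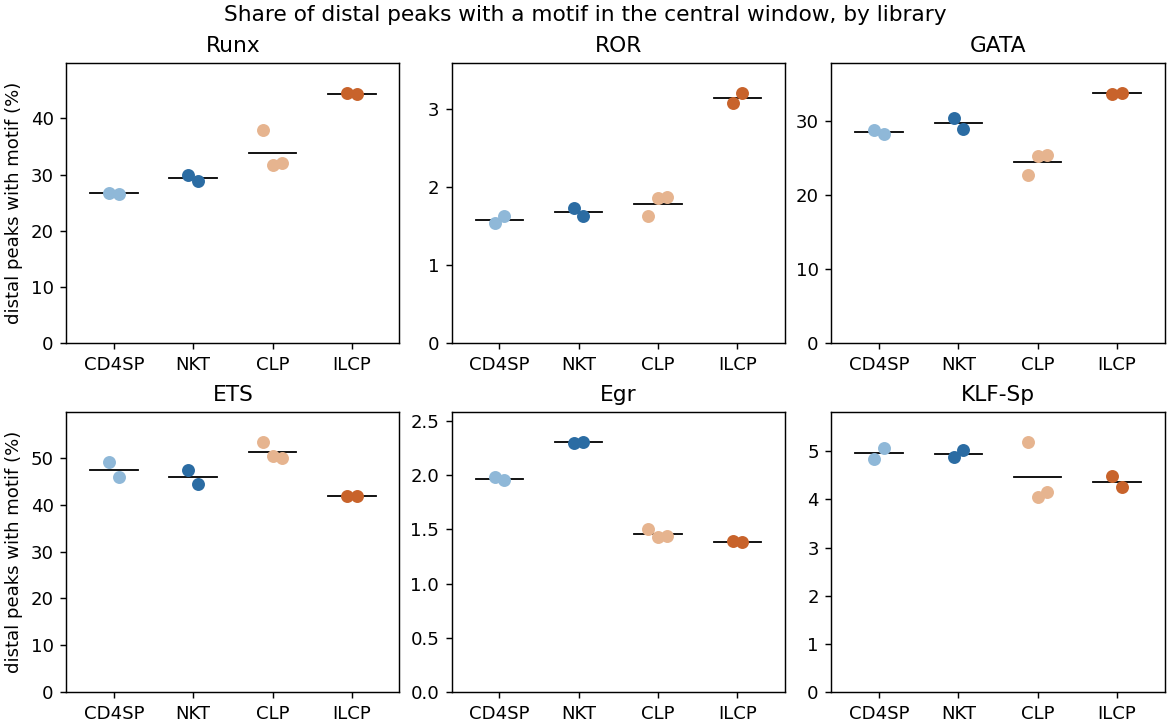
Share of distal peaks with each of 6 motifs in the central 200 bp (y axis, percent, starting at 0) for the libraries of CD4SP, NKT, CLP and ILCP; each point is a library and each line the mean of its cell type. The ILCP libraries are highest for Runx (44.5% and 44.3%), ROR and GATA sites, and the NKT libraries are highest for Egr sites (2.3% and 2.31%).

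Within the gained intervals the same motifs differed by more. A Runx site lay in the central 200 bp of 25.7% of distal NKT-gained intervals, 55.1% of ILCP-gained intervals and 36.9% of shared ones, against 34.5% of all distal merged intervals. NKT-gained intervals thus had 29.3 points fewer than ILCP-gained ones (difference -29.3, Newcombe 95% interval -30.9 to -27.7). At least 2 sites were present in 3.32% of NKT-gained and 17.3% of ILCP-gained intervals. The difference lay in the TGTGGT form of the core, found in 23% and 52.9%, while TGCGGT was found in 3.39% and 3.97%. Of the start-site windows 15.4% held a Runx site, but these differ from distal sequence and give no base level for it. The sites were centred in the intervals, with 22.6 and 22.4 per 100 ILCP-gained intervals in the innermost 50-bp bins against 4.11 and 4.29 at the edges of the profile, 475 bp away. In NKT-gained intervals the same bins held 8.38 and 8.16, against 4.66 and 4.92 at the edges.

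**Figure D3:**
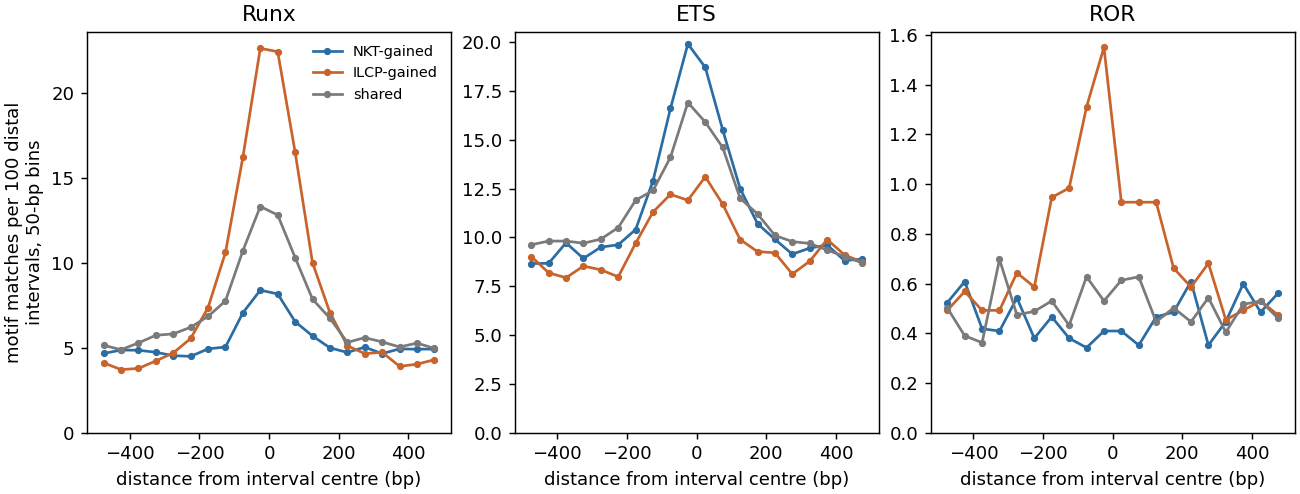
Motif matches per 100 distal intervals in 50-bp bins (y axis) by distance from the interval centre in bp (x axis), for Runx, ETS and ROR sites in NKT-gained, ILCP-gained and shared intervals. Runx sites peak at the centre at 22.6 per 100 in ILCP-gained and 8.38 in NKT-gained intervals, ETS sites peak higher in NKT-gained intervals (19.9 against 11.9 in the bin left of the centre), and ROR sites reach 1.55 in the ILCP-gained curve against 0.409 in the NKT-gained one.

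The share of intervals with a Runx site was level over the ranks of NKT-gained intervals and higher in high-ranking ILCP-gained ones. It was 26% among the 592 distal NKT-gained intervals with a mean percentile over 75 and 25.8% among the 3009 with 25 or less. In ILCP-gained intervals it was 58.8% of 662 (Wilson 95% interval 55 to 62.5) and 51.1% of 1180 (48.3 to 53.9). The Runx difference was also found with lists of equal length (26.2% against 52.4%), with windows of 40 to 55% GC (26.2% against 56.7%) and with each library left out in turn (-29.8 to -25.9 points). In whole intervals, which are longer in NKT, the shares were 63.4% and 80.2%.

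Among the other motifs, ROR sites were present in 1.47% of NKT-gained and 4.52% of ILCP-gained intervals (difference -3.05 points, Newcombe interval -3.68 to -2.47), against 2.36% of all distal merged intervals. GATA sites were present in 29.4% and 36.6% (-7.16, -8.73 to -5.61) and Tcf1 sites in 15.2% and 17.5% (-2.27, -3.51 to -1.05). The GATA difference was -1.62 points in whole intervals, and GATA sites were not centred, with 12.2 per 100 ILCP-gained intervals in the bin left of the centre against 13.3 at the left edge and with 9.27 against 10.4 in NKT-gained intervals. Higher in NKT-gained intervals were ETS sites at 49.3% against 38.9% (10.4 points, 8.79 to 12) and Egr sites at 2.78% against 0.776% (2.01 points, 1.6 to 2.4). E-boxes (CAGCTG or CAGGTG) stood at 27.9% against 24.8%, and the GC box bound by KLF and Sp factors (GGGCGGG) at 4.42% against 1.78%. CTCF sites stood at 13.1% against 9.1%, but at 10.1% against 10.2% with lists of equal length, and their difference rose from 4 to 7.41 points without NKT replicate 1. The ETS difference was 5.15 points without NKT replicate 1, the E-box difference 0.891 points without NKT replicate 2 and 4.67 without NKT replicate 1, and the Tcf1 difference -0.82 points with lists of equal length. For 9 of the 18 motifs the Wilson intervals of both classes did not overlap. The PU.1 form of the ETS site (GAGGAAGT), which contains AGGAAG, was found in 5.41% and 4.94%, with a difference of 0.468 points (-0.276 to 1.18). T-box sites (GGTGTGA) were found in 3.49% and 3.33% (0.157 points, -0.46 to 0.739). Both intervals include 0, and the PU.1 difference was -0.776 points without NKT replicate 1. In whole intervals, which are longer in NKT-gained sequence, the differences were 1.45 points for PU.1, 1.9 for T-box, 6.46 for ETS, 4.01 for Egr, 7.63 for E-box, 5.91 for KLF and Sp, 8.15 for CTCF and -4.04 for ROR sites.

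Intervals open in neither control type were examined by themselves, since they hold what each lineage did not share with CD4SP or CLP. There were 1347 such distal NKT-gained and 2528 ILCP-gained intervals. Runx sites were present in 30.2% and 58.7% (difference -28.5 points, Newcombe interval -31.5 to -25.3), and in 51.4% of the 420 shared distal intervals that were closed in both controls. Egr sites were present in 4.38% against 0.514% (3.87 points, 2.83 to 5.11), or 59 against 13 intervals. AP-1 sites (TGACTCA) were present in 10% against 5.18% (4.84 points, 3.08 to 6.74), whereas over all distal gained intervals they were at 6.44% and 5.66%. ROR sites were present in 2.15% against 5.81% (-3.66, -4.84 to -2.41), GATA sites in 36.4% against 43.9% and Tcf1 sites in 20.9% against 25.5%. Among intervals closed in the controls, Egr and AP-1 sites were thus more frequent in those open in NKT, and Runx and ROR sites in those open in ILCP. For CTCF the difference was 1.64 points, with an interval of -0.117 to 3.52. ILCP-gained intervals that were open in all 3 CLP libraries and no CD4SP library held Runx sites at 55.7%, close to the share of those closed in CLP, but ROR sites at 2.53%, GATA sites at 25.7% and Tcf1 sites at 7.98%.

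**Figure D4:**
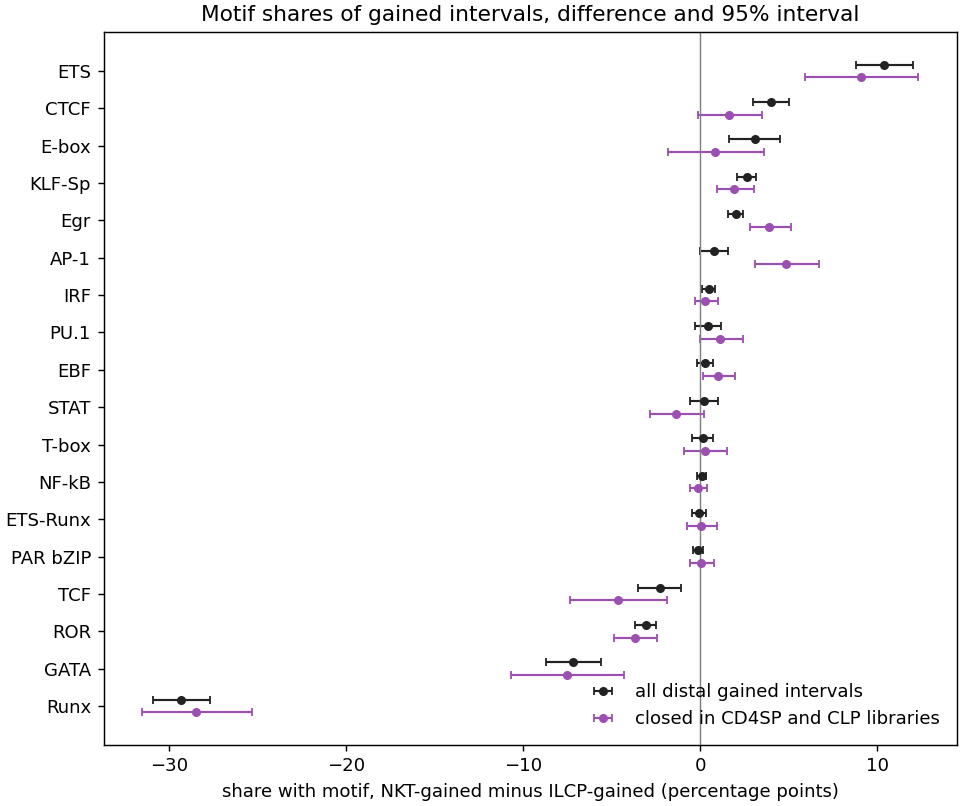
Difference in the share of distal intervals with a motif, NKT-gained minus ILCP-gained, in percentage points (x axis) for 18 motifs, with Newcombe 95% intervals as bars, for all gained intervals (black) and for those closed in CD4SP and CLP (purple). Runx lies at -29.3 and -28.5 points, ETS at 10.4 and 9.11, and Egr and AP-1 lie further to the right in the purple set.

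A gene was assigned every interval that touched its body or the 20 kb to either side of it, so that neighbouring genes can share an interval. Of 21911 protein-coding genes, 40.4% had at least 1 NKT-gained and 16.3% at least 1 ILCP-gained interval, and at start sites 10.6% were NKT-gained, 2.51% ILCP-gained and 34.7% shared. Counts of members below are read against these shares. The number of intervals given for a list adds up the counts of its genes, so an interval is counted again for each gene it touches. With lists of equal length 27.1% and 19.9% of genes had an NKT-gained or an ILCP-gained interval.

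Genes of the T cell receptor complex and its coreceptors lay mostly beside NKT-gained intervals. Of 18 such genes 14 (77.8%) had an NKT-gained interval and 3 (16.7%) an ILCP-gained one, with 44 and 3 intervals in all and a median of 2 and 0 per gene, where the median over all genes was 0 for both. At start sites 10 of the 18 were NKT-gained and 0 ILCP-gained. Cd3g and Cd3d, which encode the γ and δ chains of CD3, had 5 and 4 NKT-gained intervals and no ILCP-gained one, and since both genes are adjacent they share intervals. Cd247, the CD3ζ chain, had 6 and none, and Cd6, an adhesion receptor of T cells, had 5 and 1. Of the 44 intervals, 41 (93.2%) were also open in CD4SP, near the 89.4% of all pairs of a gene and an NKT-gained interval. With lists of equal length the list still had 14 genes with NKT-gained and 3 with ILCP-gained intervals.

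T-lineage transcription factors all had NKT-gained intervals, 11 of 11 with 42 intervals, against 1 of 11 (Bach2, a transcriptional repressor, 2 intervals) with an ILCP-gained one. With equal numbers of peaks these counts were 10 of 11 with 24 intervals against 2 of 11 (18.2%, where all genes were at 19.9%). The genes are long, with a median of 97.1 kb against 17.4 kb for all protein-coding genes, and longer genes have more room for intervals. Without ILCP replicate 1 the ILCP-gained share rose from 9.09% to 18.2% here and from 16.7% to 27.8% in the T cell receptor list. That of all genes rose as well, from 16.3% to 20.6%. Bcl11b, required for T-lineage commitment, had 8 NKT-gained intervals (3 with equal numbers of peaks), the highest-ranking of which, in an intron at chr12:107920746-107922110, stood at percentiles 88.3 and 87.8 in NKT and 90.2 and 89.5 in CD4SP. It was closed in all ILCP and CLP libraries. Its start site was shared, at percentiles 71.9 and 71.3 in NKT against 5.56 and 54.8 in ILCP. Tcf7, which encodes Tcf1, had 3 NKT-gained and no ILCP-gained intervals, and Ikzf3, of the Ikaros family, had 5 and none. Runx1 had 8 NKT-gained and no ILCP-gained intervals. With equal numbers of peaks the NKT-gained intervals were 3 at Tcf7, 3 at Ikzf3, 5 at Runx1 and 1 at Runx3. Both merged intervals at annotated Runx1 start sites that were NKT-gained, at chr16:92825122-92826845 and chr16:92697795-92699101, were open in CD4SP and in CLP replicates 2 and 3 and closed in both ILCP libraries. CLP replicate 1 also had a peak within 1 kb of a Runx1 start. A missing call in the shorter ILCP lists is no measure of Runx1 expression. Runx3, the family member of cytotoxic and innate lymphocytes, had 2 NKT-gained intervals and none ILCP-gained, and its shared start site stood at 74.5 and 87 in NKT and 62.1 and 54.2 in ILCP. Cbfb had 2 shared and no gained intervals. None of these 3 genes had an ILCP-gained interval, which 16.3% of all genes had.

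Genes of NKT selection and maturation had NKT-gained intervals in 14 of 16 (35 intervals) and ILCP-gained ones in 2 of 16 (5 intervals). Of the 35, 32 (91.4%) were also open in CD4SP and 3 (8.57%) were closed in both controls, near the 89.4% and 8.62% of all pairs. With equal numbers of peaks there were 12 genes with 23 NKT-gained and 2 genes with 6 ILCP-gained intervals. Slamf6 and Slamf1, receptors of the SLAM family used in NKT selection, had 4 and 3 NKT-gained and no ILCP-gained intervals. A Slamf6 interval centred 1.28 kb upstream of the gene, chr1:171915826-171916637, was closed in CD4SP and CLP, stood at percentiles 13.3 and 23.8 in NKT, and held an Egr site. The Slamf6 start itself had a peak within 1 kb in NKT replicate 2 but not in NKT replicate 1, in both CD4SP libraries and in CLP replicates 2 and 3. Il2rb, the β chain of the IL-2 and IL-15 receptors, had 3 NKT-gained intervals, with the start site at 62.6 and 81.2 in NKT and at 34.6 and 54.3 in CD4SP. Nr4a1, an immediate-early gene of receptor signalling, had 4 NKT-gained intervals, and Cd44, an activation marker, 5. Egr2 had no gained interval, and its shared start site stood at 98.4 and 99.7 in NKT and 85.2 and 84.1 in ILCP. Fyn, a kinase downstream of SLAM receptors, went the other way with 2 NKT-gained and 3 ILCP-gained intervals, as did Egr1, of the Egr family, with 1 and 2. Both had no NKT-gained interval with equal numbers of peaks, where Slamf6, Il2rb and Nr4a1 each had 2.

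Genes of the ILC precursor programme held intervals of all 3 classes. All 16 had a shared interval, as did 54.3% of all protein-coding genes and 8 of 8 erythroid and megakaryocyte genes, while 13 had an NKT-gained interval (37 in all) and 7 (43.8%) an ILCP-gained one (11 in all). With lists of equal length these were 11 and 7 genes, with 23 and 15 intervals. Many of the NKT-gained intervals lay at Rora (10 against 0 in ILCP), which encodes RORα, and Tox (5 against 0), an HMG-box factor needed by both lineages. The NKT-gained intervals of this list were open in neither control in 11 of 37 cases (29.7%), compared with 8.62% of all pairs of a gene and an NKT-gained interval, and 5 of the 11 lay at Zbtb16. ILCP-gained intervals of the list were closed in both controls in 8 of 11 cases (72.7%), compared with 42.6% of all pairs.

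Zbtb16 had 6 NKT-gained, 3 ILCP-gained and 3 shared intervals. The NKT-gained intervals lay 9.47 to 121 kb downstream of the start site, and 5 of the 6 were closed in CD4SP and CLP. Their percentiles in NKT replicate 1 were between 16.4 and 43.5, and in replicate 2 between 6.92 and 50.1. The ILCP-gained intervals are given by their ranks in the shorter ILCP lists, which cannot be set directly against those in NKT. The interval 21.2 kb downstream, whose central sequence is printed above, stood at 78.5 and 80.5 in ILCP, had no peak called in NKT or CD4SP, and stood at 34.1 and 24.5 in CLP replicates 2 and 3. The NKT lists come from thymocytes whose stages the labels do not separate. The missing call therefore does not show that this interval was closed at every NKT stage or was particular to ILCP. The same limit holds for the other ILCP-gained intervals of the gene. The interval 29.3 kb downstream stood at 81.2 and 64.1 in ILCP, with no peak called in any CD4SP, NKT or CLP library. That at 75.4 kb stood at 51.9 and 48.2 in ILCP and was also open in CLP. The Zbtb16 start site was shared at 54 and 65.8 in NKT and 51.5 and 49.9 in ILCP. With lists of equal length Zbtb16 had 3 NKT-gained and 3 ILCP-gained intervals. A peak was thus called in both lineages at the start of Zbtb16, while 9 further intervals had peaks in both libraries of 1 lineage and in neither of the other.

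Some other genes of the programme also held intervals of each class with the full lists. Pdcd1 had an ILCP-gained interval at chr1:94040124-94041182 (84.7 and 88.9 in ILCP) and an NKT-gained one less than 1 kb away at chr1:94041864-94043122 (74 and 66.7 in NKT), each closed in every library of the other 3 cell types. Itga4, the α4 integrin chain of the sorting marker α4β7, had 2 of each class, and both ILCP-gained intervals were closed in all CD4SP and CLP libraries. At equal list length it had 0 NKT-gained and 3 ILCP-gained. Nfil3 had 2 ILCP-gained intervals, at 27.8 and 12.7 and at 24.9 and 16.5, and 1 low-ranking NKT-gained interval, 1.93 kb upstream of its start, which was lost at equal list length together with both shared intervals, while the 2 ILCP-gained ones were counted there too. Id2, which restrains E proteins, had 2 shared intervals and none gained. Gata3 had 2 NKT-gained intervals, both of which were open in CLP replicates 2 and 3, and its shared start site was higher in ILCP (94.6 and 94.3 in NKT, 96 and 96.8 in ILCP).

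Multipotent progenitor genes had the most ILCP-gained intervals of the 12 lists. Of 16 genes 9 (56.2%) had an ILCP-gained interval and 10 (62.5%) an NKT-gained one, with 22 and 16 intervals, and 4 start sites were ILCP-gained against 1 NKT-gained. With lists of equal length 10 genes had ILCP-gained and 5 NKT-gained intervals. Meis1, a homeobox gene of haematopoietic stem and progenitor cells, had 10 ILCP-gained intervals and no NKT-gained or shared one, or 5.58 per 100 kb, and 8 of the 10 were open in CLP. Its start-site interval stood at 76.6 and 78.7 in ILCP and at 80.8, 99.2 and 99.3 in CLP, and was closed in NKT and CD4SP. The start site of Flt3, the cytokine receptor that marks CLP, stood at 80.2 and 74.8 in ILCP and at 89.3, 99.8 and 96.1 in CLP, and was also closed in the thymic libraries. Of the 22 ILCP-gained intervals in the list, 17 (77.3%) were open in CLP, compared with 56.4% of all pairs. Mef2c had 2 intervals of each class and Erg had 4 NKT-gained and 1 ILCP-gained, so the list was not uniform.

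Homing and cytokine receptor genes lay mostly beside NKT-gained intervals, whereas helper effector genes did so only with the full lists and the flanks included. Helper effector genes had NKT-gained intervals in 14 of 18 and ILCP-gained ones in 5 of 18, but 7 and 7 of 18 with lists of equal length. Without the flanks 22.2% of them had an NKT-gained interval, against 23% of all genes. Il4, the type 2 cytokine produced by NKT cells, had 3 NKT-gained intervals and no ILCP-gained one, and the neighbouring Il13 had 2 and none. Il4 had 1 and Il13 had 0 NKT-gained intervals at equal list length. Il12rb2, a chain of the IL-12 receptor, had 2 of each class, and its shared start site was higher in ILCP (58.9 and 70.6 in NKT, 75.8 and 84.4 in ILCP). Homing and adhesion genes were NKT-gained in 10 of 12 and ILCP-gained in 4 of 12, with 4 and 0 intervals at Cxcr4, the bone marrow and thymus homing receptor. Genes of cytokine receptors and JAK-STAT signalling were NKT-gained in 15 of 18 and ILCP-gained in 5 of 18, with 8 and 1 at Jak1 and 6 and 0 at Stat5b. In these last 2 lists 9 and 14 genes had NKT-gained intervals and 5 and 7 had ILCP-gained ones when the peak lists were of equal length.

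Lists of other lineages held from 7 to 13 genes. B-lineage genes had NKT-gained intervals in 4 of 11 and ILCP-gained ones in 2 of 11, of which Ebf1, the factor of early B cells, had 0 and 3. The B-lineage shares depended on single libraries. The NKT-gained share of 36.4% (all genes 40.4%) was 72.7% without NKT replicate 1 (all genes 51.1%) and 63.6% without ILCP replicate 1 (all genes 44.5%). The ILCP-gained share of 18.2% (all genes 16.3%) was 45.5% and 36.4% without ILCP replicates 1 and 2 (all genes 20.6% and 20.9%). Myeloid genes had them in 6 and 5 of 13, and Irf8 had 4 and 0. Erythroid and megakaryocyte genes had them in 2 and 0 of 8. These shares were 50% NKT-gained without NKT replicate 1 (all genes 51.1%) and 12.5% ILCP-gained without ILCP replicate 2 (all genes 20.9%). Double-positive thymocyte genes had them in 6 and 2 of 7, with 4 and 0 at Dntt, the terminal transferase of receptor gene rearrangement. When the peak lists were of equal length, the genes with NKT-gained and ILCP-gained intervals were 0 and 2 of 11 for B-lineage, 4 and 5 of 13 for myeloid, 1 and 0 of 8 for erythroid and 3 and 3 of 7 for double-positive genes, with 1 NKT-gained interval left at Dntt. Without the flanks ILCP-gained intervals were found in 9.09% of B-lineage and 7.69% of myeloid genes and in none of the double-positive and erythroid ones, against 10.1% of all genes. The Rag2 start site was ILCP-gained at percentiles 8.12 and 16, and stood at 89.2 and 89.4 in CLP replicates 2 and 3.

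**Figure D5:**
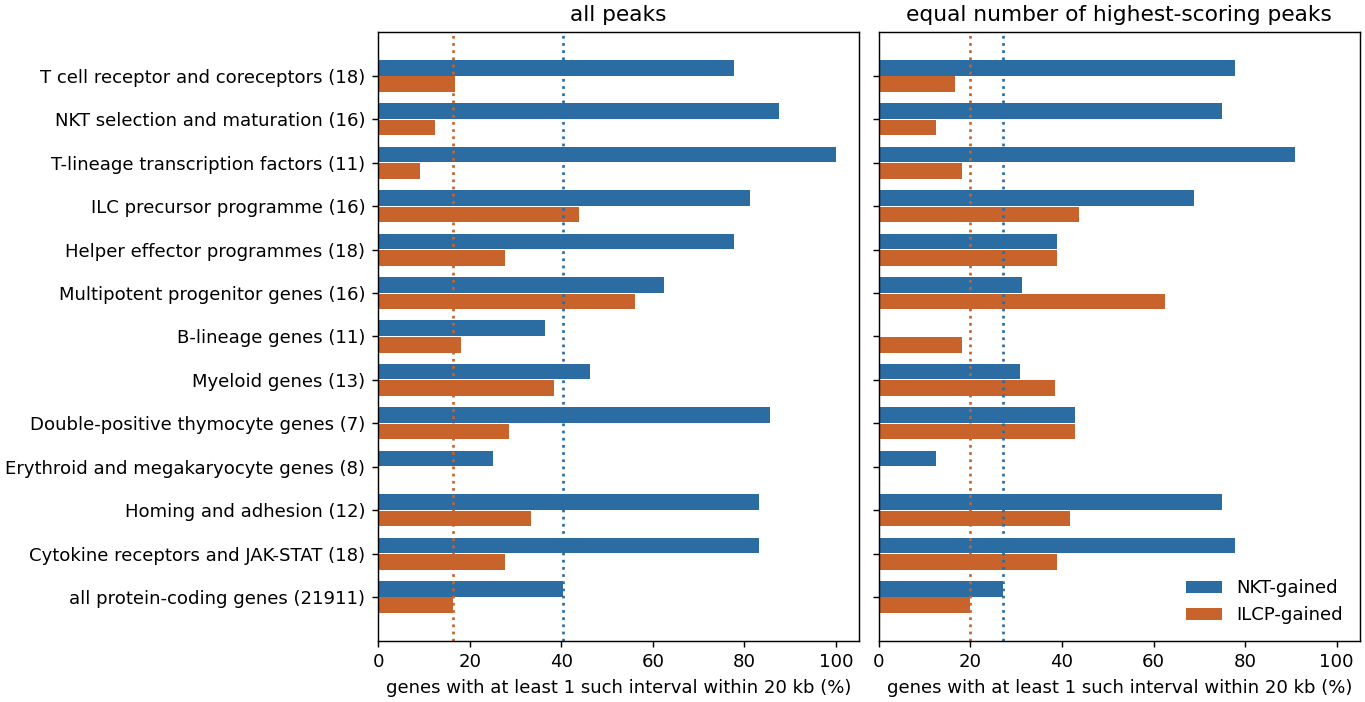
Share of the genes of each list with at least 1 NKT-gained (blue) or ILCP-gained (orange) interval within 20 kb of the gene (x axis, percent), with all peaks on the left and with equal numbers of highest-scoring peaks on the right; list sizes stand in brackets and dotted lines mark the shares of all protein-coding genes. T-lineage transcription factors reach 100% NKT-gained with all peaks, and multipotent progenitor genes are 62.5% ILCP-gained with equal lists.

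The genes with the most gained intervals were mostly long. By NKT-gained intervals these were Gm20388, a read-through gene model of 4435 kb that spans other genes (89 intervals), Fgfr2 (22, beside 7 ILCP-gained), Sox5 (19), Pde4d (19), Ubac2 (17), Wwox (17), Slc39a11 (15) and Cx3cr1 (14). With equal numbers of peaks Fgfr2 had 10 intervals of either class, so it did not lean to NKT, and the other 7 had 8 to 50 NKT-gained and 0 to 4 ILCP-gained intervals. Per 100 kb the highest of these were Ubac2 at 9.32 and Cx3cr1, a chemokine receptor, at 6.72 with no ILCP-gained interval. By ILCP-gained intervals they included Nrxn3 (11), Meis1, Ank2, Mecom, Gpc6 and Macrod2 (10 each) and Plcb4 (8). Besides Meis1, 4 of them had no NKT-gained interval, namely Nrxn3, Ank2, Gpc6 and Mecom, which encodes the stem cell transcription factor Evi1. Starts of Meis1, Ank2, Mecom and Gpc6 were open in all 3 CLP libraries, and Ank2 and Mecom had 1.62 and 1.57 ILCP-gained intervals per 100 kb. Nrxn3, Gpc6 and Macrod2 extend over 1051 to 1998 kb and had fewer than 1 ILCP-gained interval per 100 kb. Since longer genes have more room for intervals, this order is a description of where gained intervals lay.

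In the shared intervals, the ranks of both lineages were set side by side. By percentile within the library both NKT libraries stood above both ILCP libraries in 48.8% of the 14266 shared intervals, and ILCP above NKT in 22.6%, with a median difference of 5.93 points. Shared intervals stand higher in the longer NKT lists. Percentiles were therefore also taken among the shared intervals alone, a choice made after seeing the data, which gives every library the same median and so brings the median difference (-0.386 points) and the shares (33.4% and 35.5%) close to balance by construction. That scale bears on which intervals differ and not on the balance as a whole. The replicates of a type differed by a median of 6.16 points in NKT and 6.18 in ILCP on the first scale. Of 32 named genes with a shared start site, NKT stood above ILCP in 18 and ILCP above NKT in 8, and 12 and 8 of these were separated in the same direction on both scales. Start sites of Tox (83.3 and 83.9 in NKT, 27.2 and 56.6 in ILCP), Egr2, Cd3d (74.2 and 85.8 against 35.1 and 38.5), Bcl11b and Rora (80.1 and 79 against 61.6 and 59) ranked higher in NKT on both scales. The Cd3d interval is the one at the downstream end of the gene. Gata3, Itga4 (93.3 and 92.9 against 97 and 97), Il12rb2 and Jak1 (70.1 and 84.5 against 86.2 and 85.5) ranked higher in ILCP on both. Zbtb16, Id2 and Pdcd1 ranked higher in NKT by percentile within the library only, and overlapped among the shared intervals. An exact permutation p of 0.333 (two-sided), the smallest that 2 libraries against 2 allow, belongs to each of these separations.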

How the data were processed

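ATAC-seq peak lists of 9 libraries were used, each assigned to its cell type from its title. Per the study's methods and the submitters' processing notes, the authors aligned reads to mm10 with Bowtie and called peaks by MACS. The deposited lists give coordinates and a score for every peak. Peaks were listed for each library separately. Picard and HOMER are also named in the notes. The MACS version, the meaning of the score, duplicate removal and shifts for the transposase are not given in the sources used here. The lowest score was 120 in every list. Read numbers per library are not given in the lists, so depth per library is unknown, and scores were used only as percentiles within a library. The Runx1 chromatin immunoprecipitation and its input were not analysed here.

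Peak starts, counted from 0 in the lists, were converted to positions counted from 1, and the 2 mitochondrial peaks of each list were left out. Merging, classes and motif searches were written in Python 3.11.15 with numpy 2.4.6, with sequence of GRCm38.p6 read by pysam 0.24.0 and protein-coding genes of GENCODE M21. Motifs were spelled as consensus letters and searched on both strands in the central 200 bp of distal intervals (those over 1 kb away from annotated starts). The ETS-Runx motif contains a Runx site and PU.1 an ETS site. Libraries were compared by exact permutation, two-sided, and adjusted by the Benjamini-Hochberg method. Wilson and Newcombe intervals (scipy 1.17.1, statsmodels 0.14.6) cover counting error only. No test was run over a gene list. Classes and motif searches were checked on simulated data.

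The members, gene lists, motifs and markers were chosen with earlier results of these data known. Named genes were the 8 with the most gained intervals of each class, those the study's text names for these lineages, and up to 4 per list with the most gained intervals, with ties ordered from the shortest gene. A few of these genes are not reported here. Alternatives were equal numbers of the highest-scoring peaks, the higher-scoring 50% of peaks, cover of at least 50% of an interval, any replicate, each library left out, whole intervals, windows of 40 to 55% GC, peaks more than 5 kb from a start site, gene bodies extended by 0 or 50 kb, base pairs covered and a block by replicate number. Percentiles among the shared intervals, and leaving out libraries for motif shares of gained intervals, controls and lists, were added after the data were seen.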

Additional observations from a re-analysis of the deposited data

How the results depend on the processing

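The class counts followed the choice of peaks. With equal numbers of the highest-scoring peaks there were 6732 NKT-gained intervals, with the higher-scoring 50% of each list 6435 NKT-gained, 3025 ILCP-gained and 7383 shared, and with any replicate counted 21923 NKT-gained and 9787 ILCP-gained. Leaving out each library in turn gave 14399 to 19477 NKT-gained intervals (the most without NKT replicate 1), 6309 to 7928 ILCP-gained and 14791 to 16239 shared. With the 19341 highest-scoring peaks of all 9 libraries, 88.1% of NKT-gained intervals were open in CD4SP and 33.3% in CLP, and 47.2% of ILCP-gained intervals were open in CLP. Leaving out NKT and ILCP libraries gave 78.7 to 87.2%, 35.7 to 45% and 52.9 to 57.5% for these shares, and 4.91 to 9.76% for ILCP-gained intervals open in CD4SP, the highest without NKT replicate 2. The number of motifs whose libraries did not overlap was 11 with equal lists, 15 with whole peaks searched and 14 otherwise, and 16 with any library left out, where 1 library of a type remains and non-overlap is easier to reach. Among the 14 motifs whose libraries did not overlap, differences that turned round were CTCF (-0.236 points) and the joined ETS-Runx site (0.00662) with equal lists, and Tcf1 (0.304) and GATA (0.81) with whole peaks. Of the motifs with overlapping libraries, PU.1 went from -0.106 to 0.731 points and T-box from -0.00768 to 1.53 with whole peaks, in both cases with libraries that no longer overlapped. In gained intervals, among the 9 motifs whose Wilson intervals did not overlap, CTCF alone turned round under these alternatives, to -0.0709 points with equal lists. The cause was not tested. Of 12 lists, 10 had a share of NKT-gained genes above that of all genes and 9 a share of ILCP-gained genes above it. These numbers were 9 and 6 without extension of the genes, 11 and 10 with 50 kb, and 10 and 7 with equal lists. The median rank difference of shared intervals went from 5.93 to -0.386 points when percentiles were taken among the shared intervals, which follows from centring every library on the same intervals.

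The labels give both types replicate numbers 1 and 2. They do not say whether libraries with the same number were prepared together. The replicate differences of NKT and ILCP in percentile rank correlated at -0.0407 over shared intervals. Ranks within a library hide library-wide effects, so this value cannot decide whether the libraries were paired. With the replicate block the difference in peaks remained 10698 with an exact permutation p of 0.5, the smallest possible, and 14 motifs had libraries that did not overlap.

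With 2 libraries per type no comparison of libraries can go below an exact permutation p of 0.333. Depth per library is unknown, ILCP lists are shorter, and cell type cannot be told apart from tissue or from the gate. A motif match is a match of letters, and genes were linked to intervals by distance alone.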

Other observations

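A further ranking, chosen after the values were seen, counted for each gene the gained intervals that were closed in every CD4SP and CLP library. At least 1 such NKT-gained interval lay within 20 kb of 1323 genes and at least 1 such ILCP-gained interval within 20 kb of 1839 genes. Zbtb16, with 5, was among the 4 genes with the most NKT-gained intervals of this kind, after Fgfr2 and Gm20388 with 7 each and level with Kirrel3, and it was the shortest of the 4 at 182 kb. Among the genes with 3 such intervals were Nt5e, which encodes the ecto-nucleotidase CD73, and Lyst, a regulator of lysosomal granules, both without an ILCP-gained interval. On the ILCP side the count reached 5 in 8 genes, which included Fhit, Nrxn3, Gpc6 and Magi2, each longer than 1000 kb, and Trabd2b, of 208 kb, with no NKT-gained interval.

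Gained intervals at start sites held fewer Runx sites than distal ones in both classes. The shares were 17.6% of 2278 NKT-gained and 31.7% of 559 ILCP-gained start-site intervals. ETS sites were found in 43.6% and 31.7% of them and Egr sites in 5% and 2.86%. Of the intervals with peaks in all 4 NKT and ILCP libraries and none in CD4SP or CLP, 32.1% of the 420 distal ones held a Tcf1 site, against 14.4% of all distal shared intervals. This was not particular to the shared class. The share was also higher in gained intervals closed in both controls, at 20.9% against 15.2% for NKT-gained and 25.5% against 17.5% for ILCP-gained ones.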
